A study of Micropterus salmoides with 6 samples.

Results

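The genes described here are the muscle ubiquitin ligases that mark muscle wasting and the FoxO transcription factors known to drive them, in whole largemouth bass larvae (Micropterus salmoides, a predatory fish raised in fresh water). Of 10 listed symbols, 7 were among the 27166 genes of the deposited counts: the ligase genes fbxo32 and trim63b, the transcription factor gene klf15, and the FoxO genes foxo1a, foxo3a, foxo3b and foxo4. The symbols trim63a, foxo1b and fbxo40.1 were not found and were not analysed here. The members were chosen by function, in view of an earlier result of these data, the higher fbxo32 counts of SP_L against SP_H. The group values of these genes are therefore given as a description.

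RNA of whole bodies was sequenced as 6 mRNA libraries, each from 30 larvae of a tank pooled together, after 12 days of feeding. The SP_L group (3 libraries) held larvae with visible deformity of the skeleton on a diet with 0% added phospholipid, and the SP_H group (3 libraries) held normal larvae on a diet with 8% phospholipid. Every deformed pool came from one diet and every normal pool from the other, so the parts of diet and of deformity cannot be told apart, and larval age was not used here. The libraries held between 14958887 and 16922264 counts, and 20627 genes passed the filter on low counts. Levels are given as CPM, counts scaled to library size with TMM factors, and, between genes, as the authors' FPKM, which also divides by gene length. A log2 fold change is positive where SP_L is higher, and its standard error comes from edgeR's fit.

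In a resting muscle fibre, insulin and insulin-like growth factor act through the kinase Akt, which keeps FoxO proteins out of the nucleus. When that signal is low, as in fasting, FoxO proteins enter the nucleus and switch on ligase genes whose products tag muscle proteins with ubiquitin for breakdown by the proteasome. Most of this control acts on FoxO proteins rather than on their mRNA, and protein was not measured.

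fbxo32 encodes the F-box protein atrogin-1, the part of a ligase complex that picks the proteins to be tagged. Its level in the SP_H libraries was 20.1 CPM in replicate 1, 7.59 in replicate 2 and 9.64 in replicate 3. In the SP_L libraries it was 66.7 CPM in replicate 1, 132 in replicate 2 and 70.7 in replicate 3. The groups did not overlap, and the lowest SP_L library stood above the highest SP_H library. The means were 12.4 ± 6.70 CPM in SP_H and 89.7 ± 36.4 CPM in SP_L (SD, n = 3 each), a ratio of 7.21 and a log2 fold change of 2.85 ± 0.37. This log2 fold change ranked 9 from the top among 20627 tested genes. The log2 fold change lay between 2.46 and 3.38 when each library was left out in turn.

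trim63b encodes MuRF1, a RING-finger ligase that in mammals tags myosin and other proteins of the thick filament. Its level was 51.0, 52.6 and 41.2 CPM in SP_H replicates 1 to 3, and 65.7, 68.7 and 70.4 CPM in SP_L replicates 1 to 3. All SP_L libraries were above all SP_H libraries, and the step was small beside that of fbxo32. The log2 fold change was 0.50 ± 0.11.

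klf15 encodes a zinc-finger factor that in mammals answers to glucocorticoids and acts on amino acid breakdown and on muscle wasting. Its level was 16.2, 13.2 and 11.9 CPM in SP_H replicates 1 to 3 and 16.7, 18.8 and 21.0 CPM in SP_L replicates 1 to 3. The groups were separated by a narrow gap, between SP_H replicate 1 and SP_L replicate 1. The log2 fold change was 0.45 ± 0.15.

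The tested FoxO genes on the list all had negative log2 fold changes, with every alternative of the fit as well. foxo3a was at 17.4, 20.9 and 18.4 CPM in SP_H replicates 1 to 3 and at 14.7, 15.8 and 14.8 CPM in SP_L replicates 1 to 3. Here all SP_L libraries lay below all SP_H libraries, and the log2 fold change was -0.32 ± 0.11. foxo1a was at 18.9, 13.9 and 15.8 CPM in SP_H and at 11.2, 12.8 and 16.4 CPM in SP_L, in replicate order, with a log2 fold change of -0.27 ± 0.17. Its groups overlapped, since SP_L replicate 3 exceeded SP_H replicates 2 and 3. foxo3b, the most abundant FoxO gene, was at 74.1, 71.3 and 68.3 CPM in SP_H and at 59.9, 69.4 and 71.8 CPM in SP_L, again overlapping, with a log2 fold change of -0.09 ± 0.09.

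The values of foxo1a and foxo3b moved with the library left out. For foxo3b the log2 fold change was -0.02 without SP_L replicate 1, -0.06 without SP_H replicate 1 and -0.14 without SP_L replicate 3. For foxo1a, leaving out SP_H replicate 1 gave -0.14, and leaving out replicate 1 or 3 of SP_L gave -0.16 or -0.44. That of foxo3a stayed between -0.38 and -0.24 over the 6 libraries left out in turn. Neuron markers also had lower levels in SP_L: of 15 tested, 13 were negative with a median of -0.21, and their sums were 1892 to 2169 CPM in SP_H and 1733 to 1823 CPM in SP_L. Neurons express FoxO genes too, and the part of these markers in the FoxO values was not tested.

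foxo4 was close to the limit of these libraries. It had 21, 5 and 11 counts in SP_H replicates 1 to 3 and 2, 5 and 7 counts in SP_L replicates 1 to 3, too few to pass the filter on low counts, and the groups overlapped. One more FoxO gene in the deposited table, foxo6b, was not on the list and was added after its values were seen. It was at 12.9, 13.1 and 12.2 CPM in SP_H and at 6.49, 8.84 and 9.20 CPM in SP_L, with no overlap. The log2 fold change of foxo6b was -0.63 ± 0.16, which edgeR did not call (adjusted p = 0.142).

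**Figure D1:**
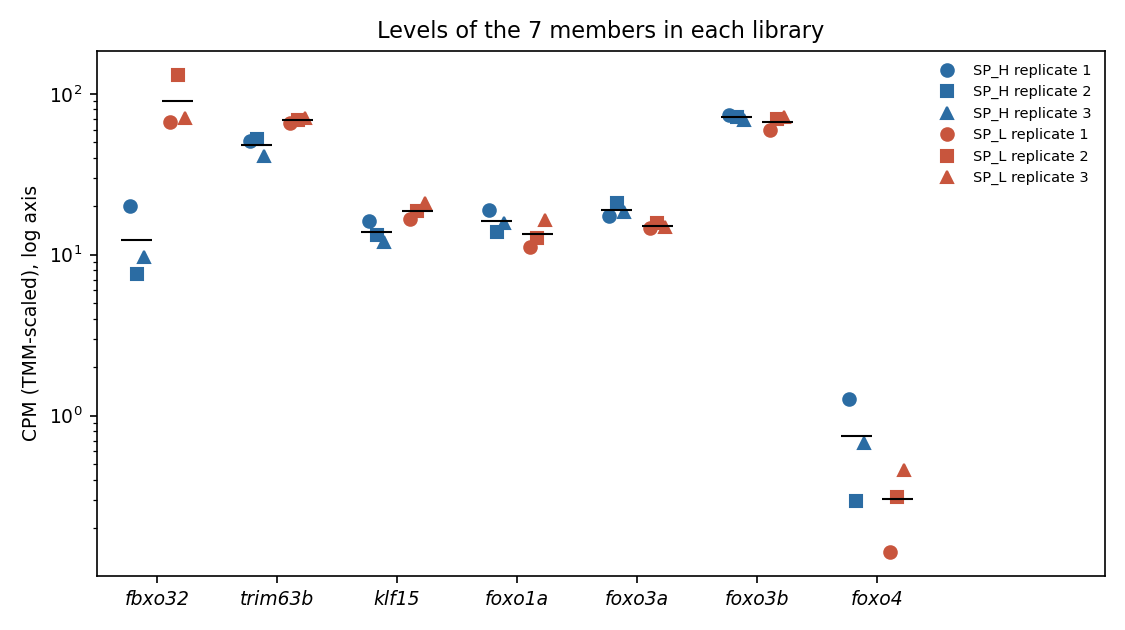
CPM on a log axis for the 7 genes in each of the 6 libraries (blue, SP_H; red, SP_L; marker shape, replicate number; black bar, group mean). The SP_L libraries of fbxo32 sit between 66.7 and 132 CPM, above all SP_H libraries at 7.59 to 20.1 CPM, and no other member shows a gap of that size.

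The quasi-likelihood test of edgeR, adjusted by Benjamini-Hochberg over the whole table, called 14 genes, which is 0.0679% of those tested. Of the 6 members tested, fbxo32 was called and trim63b, klf15, foxo1a, foxo3a and foxo3b were not. Nothing is read from this share, because the list was chosen with that call known. fbxo32 was no longer called when any library other than SP_H replicate 1 was left out. Among the other settings, the call was also lost with library size alone, robust variance estimation and the FPKM fits. DESeq2 called fbxo32 and trim63b, against 2.22% of genes with an adjusted p. Groups that did not overlap were found in 4 of the 6 members tested, 3 higher and 1 lower in SP_L. Over all tested genes the share was 19.1%, with 9.64% higher and 9.46% lower. Nothing is read from the DESeq2 and overlap counts either, since both include fbxo32, whose difference led to the list.

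The order of the members by FPKM, the scale that allows genes to be compared, differed between the groups in the places of fbxo32 and of klf15 and foxo3a. In SP_H, trim63b came first at 14.9 ± 1.75 FPKM and foxo3b next at 12.7 ± 0.495, and the ranges of these neighbours overlapped. fbxo32 followed at 5.88 ± 3.19 FPKM, foxo3a at 4.38 ± 0.354, klf15 at 3.77 ± 0.601 and foxo1a at 3.05 ± 0.496, each overlapping its neighbour in this order. foxo4 came last at 0.270 ± 0.178 FPKM (SD, n = 3 throughout).

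In SP_L, fbxo32 came first at 38.6 ± 15.2 FPKM, with trim63b at 19.3 ± 1.16 and foxo3b at 10.9 ± 1.25 after it. klf15 at 4.72 ± 0.670, foxo3a at 3.20 ± 0.130, foxo1a at 2.32 ± 0.523 and foxo4 at 0.102 ± 0.0552 FPKM made up the rest. In SP_L no neighbours in this order overlapped. The FPKM of fbxo32 divided by that of trim63b was 0.600, 0.220 and 0.357 in SP_H replicates 1 to 3 and 1.55, 2.92 and 1.53 in SP_L replicates 1 to 3. By FPKM, the ligase with the higher level was thus trim63b in every SP_H library and fbxo32 in every SP_L library. The gene lengths implied by FPKM were 2215 bases for fbxo32 and 3377 for trim63b. In CPM, without that division, fbxo32 and trim63b were close in SP_L replicate 1 (66.7 and 65.7) and replicate 3 (70.7 and 70.4).

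Of the tested members, fbxo32 also varied most within groups, a measure that does not use the difference between them. Its pooled within-group SD was 0.64 on the log2 CPM scale, higher than in 94.7% of tested genes, and the median of the 7320 genes within 1 log2 unit of its level was 0.13. SP_H replicate 1 lay 0.81 above its group's mean log2 CPM and SP_L replicate 2 lay 0.63 above its own. The within-group SDs of the other tested members were 0.25 for foxo1a, 0.20 for klf15, 0.14 for trim63b, 0.11 for foxo3b and 0.10 for foxo3a.

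The RNA came from whole bodies. The amount of muscle in a pool, fbxo32 RNA per muscle cell and fbxo32 RNA of other tissues therefore cannot be told apart. The markers of skeletal muscle fibres also differed between the groups. Of 42 listed markers 21 were in the table, and their summed level was between 114874 and 128503 CPM in SP_H and between 143434 and 167289 CPM in SP_L. All 21 were tested, 18 had positive log2 fold changes, and the median was 0.32 (0.31 relative to all genes with either scaling). The muscle creatine kinase gene ckma, which supplies fibres with ATP, was called higher (log2 fold change 0.78 ± 0.10, edgeR adjusted p = 0.0412), a call lost when any 1 of the 6 libraries was left out (adjusted p between 0.0536 and 0.129). The muscle actin gene acta1b had 0.54 ± 0.08 and casq1b, which stores calcium in fibres, had 0.64 ± 0.10, without an edgeR call (edgeR adjusted p = 0.0596 and 0.0760). DESeq2 called 8 of the 21 markers higher and 0 lower, against 2.22% of all genes with an adjusted p. Among the 8 were ckma, acta1b and casq1b (DESeq2 adjusted p = 8.65e-10, 7.09e-06 and 6.93e-06).

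Set against the mean log2 CPM of these 21 markers within each library, fbxo32 still separated the groups. Its relative level was -6.08, -7.63 and -6.97 in SP_H replicates 1 to 3 and -4.77, -3.63 and -4.56 in SP_L replicates 1 to 3, all in log2 units. The difference between the group means was 2.57, and leaving out each library in turn gave values between 2.2 and 2.97. SP_H replicate 1 and SP_L replicate 2 were again the highest of their groups.

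For the other muscle genes the result of the subtraction depended on the reference. Against the skeletal muscle markers, the relative level of trim63b was -4.83 ± 0.08 (SD, n = 3) in SP_H and -4.64 ± 0.13 (SD, n = 3) in SP_L, a difference of 0.18, and SP_L replicate 1 lay within the SP_H range. klf15 differed by 0.13, with overlapping groups. The marker ckmb ranged from 45.0 CPM in SP_H replicate 3 to 1869 CPM in SP_L replicate 1, and its part in these small differences was not tested. The related RING-finger ligase genes trim54, trim55a and trim55b, known as MuRF3 and MuRF2 in mammals, differed by -0.03, 0.14 and -0.02. The FoxO genes, which many tissues express, had differences of -0.60 for foxo1a, -0.64 for foxo3a and -0.42 for foxo3b.

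**Figure D2:**
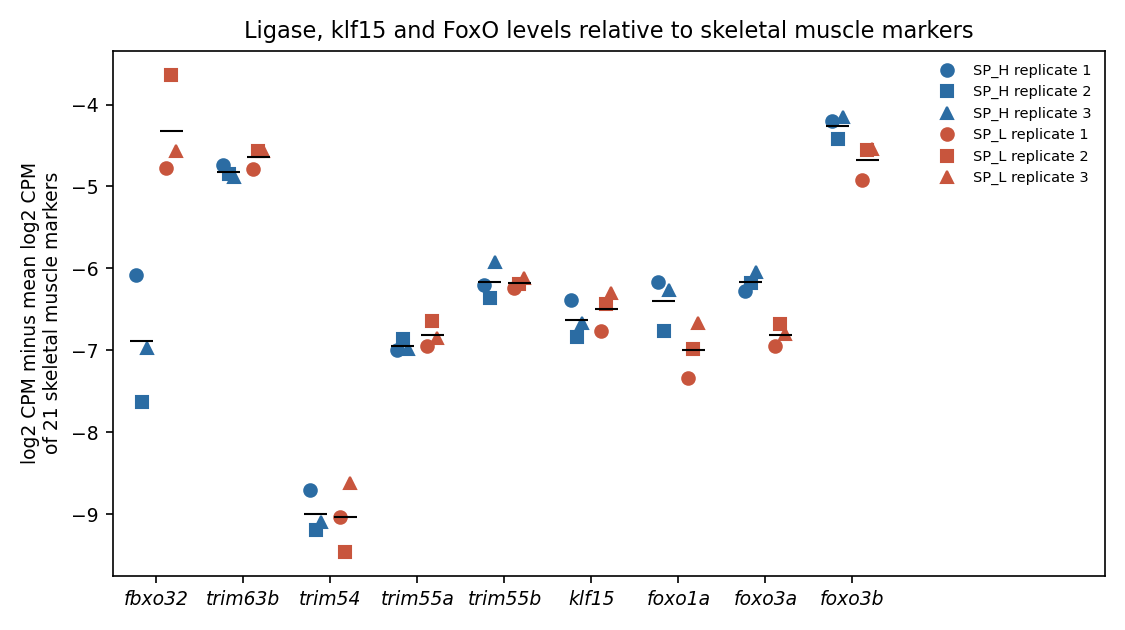
Log2 CPM of each gene minus the mean log2 CPM of 21 skeletal muscle markers of the same library (blue, SP_H; red, SP_L; marker shape, replicate number; black bar, group mean). fbxo32 differs by 2.57 between the group means, and trim63b, trim54, trim55a, trim55b and klf15 differ by at most 0.18.

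The markers of slow muscle fibres and of heart, other kinds of muscle in a whole larva, did not separate the groups in the direction of fbxo32. Of the 10 slow muscle markers tested, 8 were negative with a median of -0.12, and their summed level was 703 to 779 CPM in SP_H and 642 to 676 CPM in SP_L. For the slow fibre gene mybpc1, which encodes a thick filament protein, the log2 fold change was -0.37 ± 0.10 (edgeR adjusted p = 0.162, DESeq2 adjusted p = 0.0412). With the slow muscle markers as the reference the difference in fbxo32 was 3.01. Against that reference trim63b differed by 0.63 without overlap, klf15 by 0.58, trim54 by 0.41, trim55a by 0.58 and trim55b by 0.43. The FoxO genes then differed by -0.15 for foxo1a, -0.19 for foxo3a and 0.03 for foxo3b, so that foxo3b changed sign. The heart markers (13 tested, 8 positive) summed to between 196 and 245 CPM in SP_H and between 194 and 297 CPM in SP_L, and nkx2.5 was at 0 counts in every library. SP_H replicate 3 was low in liver markers, at 3780 CPM against 6281 and 6661 in the other SP_H libraries, and in gut markers, at 31.0 CPM against 75.9 and 83.7, and the group values of fbxo32 without it are included in the ranges above.

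Genes whose level followed fbxo32 over the 6 libraries were ranked by Pearson correlation of log2 CPM among 12063 named genes of at least 1 log2 CPM. The points are 6 libraries in 2 groups, so a high value mainly reflects the gap between the groups. The closest were trib3, a stress-response pseudokinase gene (r = 0.990), the heat shock protein gene hspa4b (0.988), the kinase gene alpk2 (0.986), the protease inhibitor gene cst3 (0.985), the adiponectin receptor gene adipor2 (0.984) and the kinase gene tyk2 (0.982). trib3 was at 24.0, 18.8 and 19.5 CPM in SP_H replicates 1 to 3 and at 39.4, 43.2 and 40.0 CPM in SP_L replicates 1 to 3.

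A second ranking used each library's deviation from its group mean, which removes the gap between groups. Few independent values remain once the group means are taken from 6 libraries. High correlations are then easily reached among 12063 genes, and those below were not tested. The closest genes were the endosomal sorting gene vps35l (r = 0.997), the chaperone-modifying enzyme gene ficd (0.993), tm9sf1 (0.992), pdk2a (0.990), the phosphatase gene dusp6 (0.988) and the DNA repair gene dclre1c (0.987), over the same 6 libraries and 12063 genes. Among them was pdk2a, a pyruvate dehydrogenase kinase gene whose product limits the use of glucose by mitochondria. Its pooled within-group SD of log2 CPM was 0.60, against 0.64 for fbxo32. Its level was 86.1, 38.4 and 47.9 CPM in SP_H replicates 1 to 3 and 72.1, 153 and 77.7 CPM in SP_L replicates 1 to 3. SP_H replicate 1 and SP_L replicate 2 were the highest of their groups, as for fbxo32, but here SP_H replicate 1 exceeded SP_L replicates 1 and 3. The log2 fold change of pdk2a was 0.82 ± 0.34 and edgeR did not call it (adjusted p = 0.357). Among the members, the correlation of deviations with fbxo32 was 0.57 for klf15, 0.45 for foxo1a, 0.44 for foxo3b, 0.17 for trim63b and -0.40 for foxo3a.

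**Figure D3:**
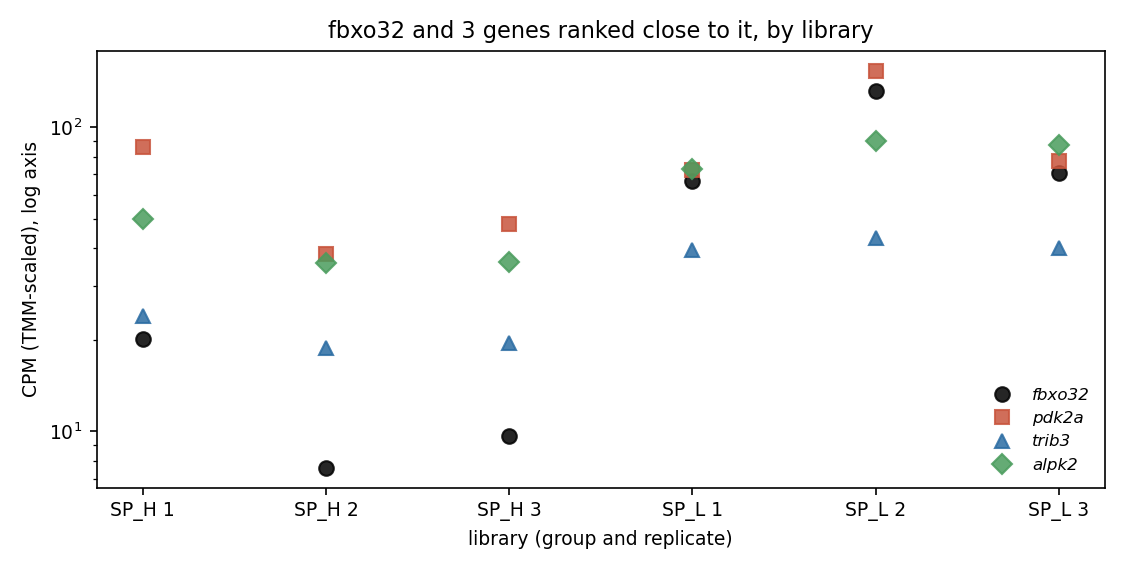
CPM on a log axis of fbxo32 (black circles), pdk2a (red squares), trib3 (blue triangles) and alpk2 (green diamonds) in each library. In fbxo32 and pdk2a, SP_H replicate 1 and SP_L replicate 2 stand above the other libraries of their groups, while trib3 stays between 39.4 and 43.2 CPM in SP_L.

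The genes around these members were taken from 8 lists, on ligases, ubiquitin recycling, FoxO targets, klf15 and amino acids, insulin and mTOR, myostatin, glucocorticoids and the contact of nerve and muscle. Of 189 genes tested, edgeR called 0, against 0.0679% of all tested genes. At so low a share, nothing is read from the 0. At an unadjusted edgeR p under 0.05 there were 33 higher (17.5%) and 6 lower (3.17%), against 6.90% and 5.84% of all tested genes. DESeq2 called 12 of the 189 higher and 0 lower, against 326 higher and 123 lower among 20224 genes with an adjusted p. Among the 12 were asb2a.1, fbxo30a, klhl40b, cdkn1a, usp13, fsta, cebpd, chrna1 and chrnb1, all described below. With limma-voom 0 of the 189 were called, against 18 genes called over the whole table. The median log2 fold change was 0.06, against 0.0026 over all tested genes, of which 49.5% were negative. With library size alone as the scaling the median of all genes moved to -0.13, and list medians below are therefore also given relative to all genes.

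The list of other muscle ubiquitin ligases was the longest of the 8. Of 38 tested, 28 had positive log2 fold changes (21 with library size alone), with a median of 0.17 (0.17 relative to all genes with either scaling). At an unadjusted edgeR p under 0.05, 12 were higher and 0 lower, against 6.90% higher and 5.84% lower of all tested genes. Of the 21 skeletal muscle markers, 13 were higher and 0 lower by the same measure. The largest log2 fold change among these ligases was 0.97, against 2.85 for fbxo32. asb2a.1, whose mammalian relative ASB2 marks muscle proteins such as filamin for breakdown, was at 16.5, 15.0 and 16.3 CPM in SP_H and at 33.9, 24.3 and 28.4 CPM in SP_L, in replicate order. Its log2 fold change was 0.86 ± 0.13 without a call (edgeR adjusted p = 0.0709), and it was called by DESeq2, with robust variance estimation and without a low-count filter.

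Another ligase gene of this list, fbxo30a, encodes a relative of the mammalian MUSA1, which FoxO factors are known to drive. Its level was 12.7, 11.6 and 13.3 CPM in SP_H and 20.5, 18.2 and 19.8 CPM in SP_L, without overlap, and the log2 fold change was 0.63 ± 0.11 (edgeR adjusted p = 0.0760). klhl40b, which in mammals stabilises proteins of the thin filament, had a value of 0.90 ± 0.17 in the same units (edgeR adjusted p = 0.0837). DESeq2 called both fbxo30a and klhl40b (DESeq2 adjusted p = 0.0111 and 9.66e-05). The skeletal muscle markers differed between the same groups, and their part in these values was not tested.

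fbxo25, the closest relative of fbxo32 by family, did not share its pattern. It was at 16.1, 12.6 and 10.8 CPM in SP_H and at 12.3, 13.3 and 16.4 CPM in SP_L, with a log2 fold change of 0.09 ± 0.17. It was named for its family after its values were seen, as were fbxo21 and fbxo31, which FoxO factors are also known to drive in mammals and which had 0.09 ± 0.10 and 0.14 ± 0.07.

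FoxO targets had log2 fold changes of both signs. Of 36 tested, 25 were positive (17 with library size alone) with a median of 0.09 (0.09 relative to all genes with either scaling). At an unadjusted edgeR p under 0.05, 5 were higher and 0 lower, against 6.90% higher and 5.84% lower of all tested genes. Groups that did not overlap were 6 higher and 0 lower, against 9.64% higher and 9.46% lower of all tested genes. Besides fbxo30a, the lowest p-values belonged to the cell cycle inhibitor gene cdkn1a (0.49 ± 0.11, edgeR adjusted p = 0.128) and to ppargc1a, a coactivator of mitochondrial genes (0.49 ± 0.15, edgeR adjusted p = 0.206). The largest log2 fold change of the list was that of pck1, 1.05 ± 0.35 (edgeR adjusted p = 0.249). pck1 was at 4.45, 2.71 and 1.54 CPM in SP_H and at 6.41, 7.09 and 4.53 CPM in SP_L, in replicate order. It was named after its values were seen. In the ubiquitin and recycling list, 17 of 20 were positive (6 with library size alone), among them the ubiquitin protease gene usp13 at 0.47 ± 0.10 (edgeR adjusted p = 0.117). The median of that list was 0.095 (0.09 relative to all genes with either scaling). In it 4 were higher and 0 lower at an unadjusted edgeR p under 0.05, against 6.90% and 5.84% of all tested genes. Of 15 tested genes on klf15 and amino acid breakdown, 9 were positive (7 with library size alone), with a median of 0.06 (0.05 relative to all genes with either scaling). The branched-chain amino acid enzyme gene bckdha had 0.22 ± 0.09 (edgeR adjusted p = 0.318).

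Of the signals upstream of FoxO, only the mRNA of their genes was measured. The insulin, IGF, Akt and mTOR list had 32 tested genes, 20 positive and 12 negative (6 and 26 with library size alone), with a median of 0.02 (0.02 relative to all genes with either scaling). Its lowest p-values belonged to the mTOR complex gene akt1s1 (0.38 ± 0.12, edgeR adjusted p = 0.204), rheb, an activator of mTOR (-0.26 ± 0.09, edgeR adjusted p = 0.257), and the kinase gene rps6kb1b (0.20 ± 0.08, edgeR adjusted p = 0.366). The myostatin and activin list, on ligands that restrain muscle growth, had 17 tested genes, 10 negative (16 with library size alone), with a median of -0.10 (-0.10 relative to all genes with either scaling). Within it was fsta, whose product follistatin binds these ligands. Its level was 21.2, 24.7 and 17.6 CPM in SP_H and 36.8, 27.3 and 33.8 CPM in SP_L, without overlap. The log2 fold change of fsta was 0.62 ± 0.15 (edgeR adjusted p = 0.131), and DESeq2 called it (DESeq2 adjusted p = 0.0204). The next by p in this list were lower in SP_L, smad7 at -0.31 ± 0.09 (edgeR adjusted p = 0.199) and gdf11 at -0.34 ± 0.17 (edgeR adjusted p = 0.441).

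The glucocorticoid list had 15 tested genes, 10 positive (5 with library size alone), with a median of 0.06 (0.06 relative to all genes with either scaling). Its lowest p belonged to the transcription factor gene cebpd at 0.50 ± 0.14 (edgeR adjusted p = 0.171). The next by p were lower in SP_L, glulb at -0.31 ± 0.13 (edgeR adjusted p = 0.355) and glula at -0.22 ± 0.10 (edgeR adjusted p = 0.391). fkbp5, a gene that glucocorticoids induce in mammals, was singled out after its values were seen. It was at 57.5, 48.6 and 44.2 CPM in SP_H and at 28.9, 68.2 and 95.5 CPM in SP_L, in replicate order. Its SP_L libraries lay on both sides of the SP_H range, and the highest of them was replicate 3. The within-group SD of fkbp5 was higher than in 94.7% of tested genes. A part of glucocorticoids in the values of fkbp5 or fbxo32 was not tested.

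In the list on the contact of nerve and muscle, 16 of 23 tested genes were positive (11 with library size alone) with a median of 0.13 (0.12 relative to all genes with either scaling). At an unadjusted edgeR p under 0.05, 7 of them were higher and 3 lower, against 6.90% higher and 5.84% lower of all tested genes. Genes for subunits of the muscle acetylcholine receptor, which receives the nerve's signal, were among those with the lowest p. chrna1 was at 30.5, 30.9 and 29.9 CPM in SP_H and at 48.5, 42.6 and 48.7 CPM in SP_L, with no overlap. Its log2 fold change was 0.62 ± 0.09 (edgeR adjusted p = 0.0596), and it was called by DESeq2, with robust variance estimation and without a low-count filter. chrnb1 had 0.78 ± 0.17 (edgeR adjusted p = 0.114) and the muscle transcription factor gene myf6 had 0.84 ± 0.22 (edgeR adjusted p = 0.151). The median of the skeletal muscle markers was 0.32 between the same groups. Their part in the values of chrna1, chrnb1 and myf6 was not tested. Other receptor subunit genes had overlapping groups, chrne at 0.29 ± 0.13, chrng at 0.64 ± 0.29 and chrnb1l at -0.08 ± 0.62. The lowest value of the list was that of ncam1a, -0.35 ± 0.10 without overlap (edgeR adjusted p = 0.176). ncam1a and these other subunit genes were named after their values were seen.

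**Figure D4:**
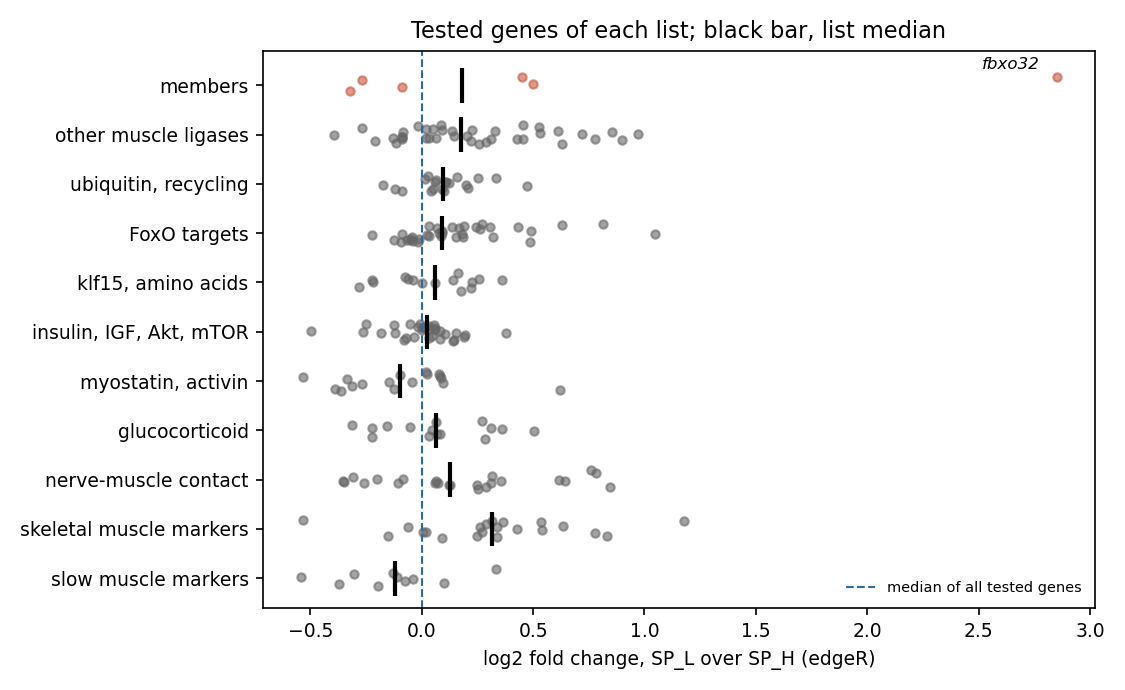
Log2 fold change of SP_L over SP_H from edgeR for each tested gene of 11 lists (points; vertical positions are spread for visibility; black bar, list median; dashed line, median of all tested genes). fbxo32 lies at 2.85, and the highest gene of the other muscle ligases lies at 0.97.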

How the data were processed

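Whole-body RNA of 6 pools was measured by sequencing of stranded mRNA libraries, per the labels' protocols. The tools named, per the submitters' processing notes, are HTSeq, Cufflinks, StringTie, HISAT2, Bowtie2, Trimmomatic, DESeq and SAMtools. Their roles, their versions and the treatment of reads shared by paralogs were not given in the sources used here. Because those notes name a mouse genome build, no coordinates are given. The authors deposited raw counts per gene and FPKM, which is count per gene length and library total.

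In R 4.3.3, edgeR 4.0.16 was used with filterByExpr (minimum count 10, minimum total 15), TMM scaling and Benjamini-Hochberg adjustment at 0.05 over 20627 genes, without a block. Log2 CPM used a prior count of 2. DESeq2 1.42.0 and limma 3.58.1 (voom, and trend on log2 FPKM) were alternatives. Robust variance and leaving out the 20 most abundant genes were added after the data were seen. Scripts were tested on simulated data.

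Members and lists were chosen with earlier results of these data known. Named genes were the members, called genes, genes among the 3 lowest p-values per list, and 6 genes per likeness ranking, unless the text says otherwise. Not all 3 were named in every list. Replicate pairs had a variance of 11.1 to 14.8 times that of sampling, so none is a repeated library. P-values set the difference between groups against the spread between pools, and 3 libraries a group limit their precision. The fits share information on that spread between genes, so p-values and standard errors do not rest on a gene's own pools alone. For fbxo32, with its high within-group SD, the edgeR adjusted p was 0.0446, and 0.124 with robust variance estimation. Promoter and protein sequences were not analysed here.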

Additional observations from a re-analysis of the deposited data

How the results depend on the processing

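Against 14 genes called, library size alone gave 5, DESeq2 449, no low-count filter 57, robust variance estimation 78 and each of the 3 limma fits of FPKM 0 (3639, 3614 and 3881 at an unadjusted p under 0.05). Leaving out 1 library gave between 0 and 22; the 0 without SP_H replicate 3 and without SP_L replicate 1 stood beside 2228 and 2179 at an unadjusted p under 0.05. The replicate block gave 2; deviations of same-numbered libraries correlated at -0.07, -0.09 and -0.10, no library correlated best with its own number, and the numbers were not treated as pairs. Of the 189 surrounding genes, called in 0 cases, DESeq2 called 12, and no low-count filter and robust variance estimation 2 each. The directions of all 6 tested members were the same in all 18 alternatives. The log2 fold change of fbxo32 lay between 2.46 and 3.38, and it was called in 7 of them (adjusted p between 2.87e-05 and 0.149; 0.108 with the replicate block, as for ckma, whose call was lost there too). Its adjusted p was 0.0287, 0.148 and 0.149 without SP_H replicates 1, 2 and 3, and 0.107, 0.0536 and 0.0803 without SP_L replicates 1, 2 and 3. trim63b moved to 0.36 with limma on log2(FPKM + 1), filtered or not. foxo3a moved to -0.45 with library size alone and -0.44 on log2(FPKM + 0.1), and foxo3b to -0.22 with both and to -0.20 on log2(FPKM + 1), filtered or not; library size alone moves the median of all genes by -0.13. The causes were not tested. An exact permutation test of 3 against 3 libraries cannot give a p below 0.1. foxo4, with 2 to 21 counts a library, is limited by depth.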
